A study of Mus musculus with 6 samples.

Results

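The genes described here are those whose symbol begins with Zfp and a number, the mouse naming series for zinc finger proteins, with a summed raw count of at least 600 over the 6 libraries. The tristetraprolin-type genes Zfp36, Zfp36l1, Zfp36l2 and Zfp36l3 and symbols marked as pseudogenes were left out. Of the 54532 genes listed, 403 carried such a symbol, 375 of these had a count in any library, 316 were tested and 216 reached the minimum. All 216 were tested. Since the members were chosen by their summed count, their abundance is given as a description. Just inside the minimum stood Zfp213 with a summed count of 603, Zfp661 with 620 and Zfp763 with 629, and just outside it Zfp712 with 599, Zfp771 with 584 and Zfp940 with 566. Zfp213, for example, was at 6.13, 8.21 and 7.82 CPM with Akkermansia and 5.26, 5.91 and 5.40 CPM with PBS, where CPM stands for counts scaled to a common library size.

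RNA was sequenced from splenic CD4+ T cells of wild type C57BL/6J mice in which dextran sulfate sodium (DSS) in the drinking water had induced colitis. Both groups received DSS, and the 3 libraries of one group came from mice given Akkermansia muciniphila, a mucin-degrading gut bacterium, each day, the 3 of the other from mice given PBS. All libraries carry batch label 1 and are called biological replicates in the design text, and the number of mice behind a library is not stated. The cell type entry reads CD4+ T cells throughout, but the free-text descriptions name CD4, CD5 and CD6 for the libraries numbered 1, 2 and 3 of each group. No sample from mice without colitis was analysed here. Age, sex and DSS dose are not stated in the labels.

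Most Zfp proteins carry C2H2 zinc fingers, short loops in which a pair of cysteines and a pair of histidines hold a zinc ion, strung together in arrays that read DNA a few bases at a time. The largest subfamily adds a KRAB box near the amino terminus, which recruits Trim28 and, through it, the methyltransferase Setdb1 and heterochromatin proteins, and is best known for silencing retroelements and imprinted loci. Other Zfp proteins lack the KRAB box and act as corepressor partners, RNA-binding or ribosome-associated factors, and a few direct lymphocyte development.

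The members were mostly of modest abundance. Per unit of length, their median level was 5.18 FPKM (FPKM scales reads for gene length and library size, mean over 6 libraries), beside 10.4 FPKM for all 9766 genes that reached the same summed count. The range ran from 0.883 FPKM to 39.1 FPKM. The highest levels belonged to Zfp869 at 39.1 FPKM, Zfp740 at 37.2, Zfp598 at 35.4, Zfp592 at 31.2 and Zfp281 at 30.2. Zfp598, an E3 ubiquitin ligase that marks collided ribosomes, was at 119.6, 127 and 119.6 CPM with Akkermansia and 111, 96.8 and 125 CPM with PBS, and its groups overlapped (log2 fold change 0.14 ± 0.088, edgeR adjusted p = 0.33). Here and below, values are listed for libraries 1, 2 and 3 of each group in that order, fold changes are log2 of Akkermansia over PBS with a standard error, and n = 3 libraries a group. Zfp869, a KRAB-type gene of a chromosome 8 cluster, was lower in each Akkermansia library (58.7, 57.8 and 56.2 CPM) than in each PBS library (69.1, 67.0 and 65.2 CPM) but missed the threshold (log2 fold change -0.22 ± 0.073, edgeR adjusted p = 0.0572).

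With Akkermansia 22 members were higher and 15 lower at a Benjamini-Hochberg adjusted p under 0.05 in edgeR's quasi-likelihood test, 17.1% of the 216. Over all 15138 genes tested 15.6% were called, 7.32% higher and 8.28% lower, and over the 9766 genes with a summed count of at least 600 the share was 20.4% (9.85% higher, 10.6% lower). The share of members called was thus near the background, and between the 2 backgrounds. The changes were small: the median log2 fold change was 0.45 among members called higher and -0.56 among those called lower, and Zfp683 was the 1 member whose fold change passed 2-fold. Across all members the median was 0.09, with 134 of 216 above 0, beside -0.01 for all genes tested and 0.00 for genes with at least 600 counts. The 3 Akkermansia libraries all lay above the 3 PBS libraries in 55 members and all below them in 33. Such separation was found in 34.9% of all genes tested (17.1% higher, 17.8% lower) and in 40.8% of genes with at least 600 counts (20.6% higher, 20.2% lower), and it held for all 37 members called.

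The number called depended on the libraries used. It was 24 without Akkermansia library 1, 23 without library 2 and 23 without library 3 of that group, with 13, 13 and 11 of them higher. Over all genes the number called fell too, from 1108 higher and 1253 lower to 647 and 755, 519 and 623, and 535 and 638 without the same libraries. Without PBS library 1, 2 or 3 it was 25, 40 and 37. On log2(FPKM + 1) with limma it was 23, with 13 higher. Of the 37 calls, 33 were kept without PBS library 2 and 31 without PBS library 3. Among the 22 members called higher, PBS library 2 was the PBS library nearest to the Akkermansia group in 11, library 3 in 7 and library 1 in 4. Among the 15 called lower it was library 2 in 9, library 3 in 5 and library 1 in 1.

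**Figure D1:**
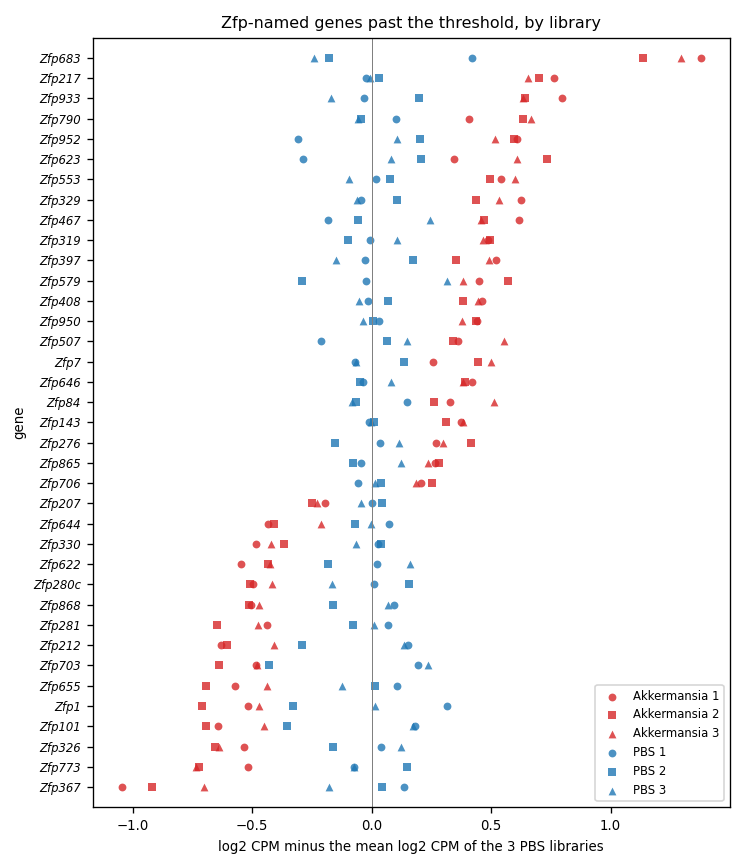
Levels of the 37 Zfp-named genes past the threshold in each library, as log2 CPM minus the mean log2 CPM of the 3 PBS libraries (horizontal axis), genes ordered by log2 fold change from Zfp367 at -0.89 to Zfp683 at 1.24. Red symbols are Akkermansia libraries and blue symbols PBS libraries. In every row the red and blue symbols do not overlap.

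Markers of other cell types differed between the same libraries. All 15 B cell markers were higher with Akkermansia, with a summed level of 1319 to 1501 CPM against 905 to 931 CPM with PBS, and so were both CD8 T cell markers (61.3 to 93.4 against 19.1 to 20.2 CPM). Of 5 NK cell markers 4 were higher (36.8 to 44.0 against 20.1 to 27.7 CPM), of 6 monocyte and macrophage markers 2 (294 to 314 against 197 to 251 CPM), and of 6 neutrophil markers, 5 of them tested, 1 (72.0 to 162 against 12.7 to 51.3 CPM). Of 6 erythroid markers 1 was lower (214 to 373 against 424 to 978 CPM). T cell markers summed to 3993 to 4301 against 3722 to 3827 CPM, with 4 of 8 higher and 1 lower. None of these markers had a summed count of 0 over the 6 libraries, and their part in the differences of Zfp genes was not tested. In bulk RNA, fewer cells of a type and less RNA per cell cannot be told apart.

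Among 12 members on the list of lymphocyte genes, 1 was called higher and 1 lower. The shares called were 15.6% of all genes tested and 20.4% of genes with at least 600 counts. The difference between this list and all genes was not tested. Zfp683 encodes Hobit, a relative of Blimp-1 known from tissue-resident memory T cells and NK cells. It was at 16.2, 13.7 and 15.3 CPM with Akkermansia and 8.34, 5.51 and 5.27 CPM with PBS. All Akkermansia libraries were above all PBS libraries, PBS library 1 was the highest of its group, and the change was the largest rise among the members (log2 fold change 1.24 ± 0.19, edgeR adjusted p = 0.000998). The summed NK cell markers, given above, were higher in the same libraries. Zfp281, a GLI-type factor best known as a regulator of pluripotency in embryonic stem cells, was at 130.0, 112 and 127 CPM with Akkermansia and 184, 167 and 177 CPM with PBS. It was lower in each Akkermansia library (log2 fold change -0.52 ± 0.075, edgeR adjusted p = 0.000803). Its close paralog Zfp148 was at 133, 122 and 143 CPM with Akkermansia and 147, 135 and 139 CPM with PBS, and the groups overlapped (log2 fold change -0.08 ± 0.075, edgeR adjusted p = 0.517).

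The other 9 lymphocyte genes of the list also missed the threshold. Zfp318, required for IgD production in mature B cells, was at 62.9, 64.5 and 65.0 CPM with Akkermansia and 53.3, 51.0 and 58.4 CPM with PBS. The groups did not overlap (log2 fold change 0.24 ± 0.079, edgeR adjusted p = 0.0554), and the summed B cell markers, given above, were higher in the same libraries. Zfp91, a ubiquitin ligase of the non-canonical NF-kB pathway, was at 203, 221 and 203 CPM with Akkermansia and 238, 241 and 238 CPM with PBS, lower in each Akkermansia library (log2 fold change -0.19 ± 0.066, edgeR adjusted p = 0.0641). Zfp335, known for its role in thymocyte maturation, was higher in each Akkermansia library (86.2, 88.5 and 89.8 CPM) than in each PBS library (59.9, 79.8 and 84.0 CPM), with PBS library 1 far below the rest (log2 fold change 0.24 ± 0.11, edgeR adjusted p = 0.162). An antisense gene, Zfp335os, is counted separately and did not reach the summed count. It was lower with Akkermansia, at 3.86, 3.07 and 2.91 CPM against 6.16, 7.48 and 4.84 CPM (log2 fold change -0.91 ± 0.24, edgeR adjusted p = 0.0225). No source names the strand setting, without which reads of overlapping antisense genes cannot be told apart. Zfp341, a transcriptional activator of Stat3, had a log2 fold change of 0.23 (edgeR adjusted p = 0.419). Zfp608 was at 6.70, 7.74 and 11.0 CPM with Akkermansia and 6.58, 5.51 and 6.13 CPM with PBS (log2 fold change 0.48 ± 0.21, edgeR adjusted p = 0.145), while its paralog Zfp609 had overlapping groups and a log2 fold change of -0.019. The log2 fold changes of Zfp260, Zfp292 and Zfp831 were 0.26, -0.13 and -0.017, with edgeR adjusted p-values of 0.0974, 0.247 and 0.917. Zfp366, Zfp423 and Zfp521, on the same list, did not reach the summed count.

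**Figure D2:**
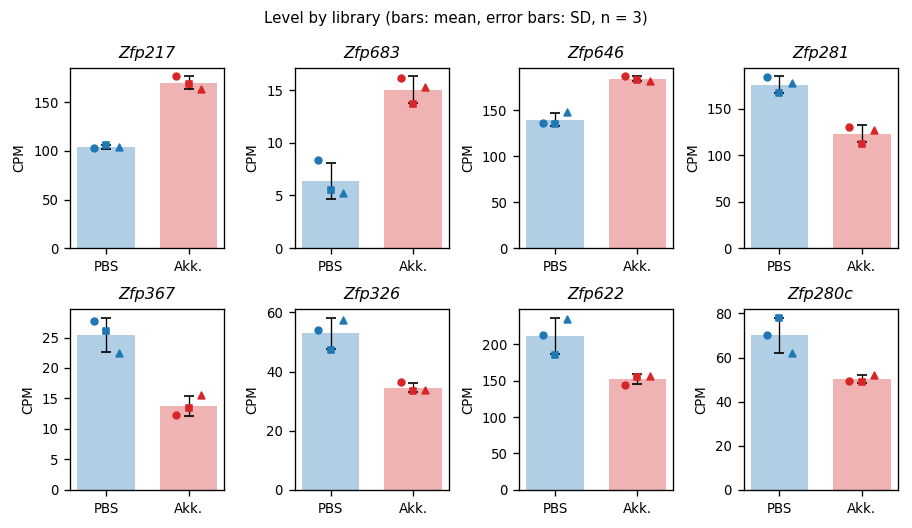
Levels in CPM (vertical axes, from 0) of 8 called members in the PBS and Akkermansia (Akk.) libraries; bars are means, error bars SD (n = 3), and circles, squares and triangles are libraries 1, 2 and 3. Zfp217, Zfp683 and Zfp646 were higher with Akkermansia, and Zfp281, Zfp367, Zfp326, Zfp622 and Zfp280c lower, with no overlap between groups.

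Of 10 members that act on RNA or ribosomes, 4 were called lower and 1 higher. For comparison, 10.6% of all genes with at least 600 counts were called lower and 9.85% higher. This list was chosen with earlier results known, and its difference from all genes was not tested. Zfp326, part of a complex that couples RNA polymerase II elongation to splicing, was at 36.4, 33.5 and 33.9 CPM with Akkermansia and 54.1, 47.1 and 57.4 CPM with PBS (log2 fold change -0.61 ± 0.095, edgeR adjusted p = 0.00112). Zfp622, a factor in late maturation of the large ribosomal subunit, was at 144, 156 and 156 CPM with Akkermansia and 213, 185 and 235 CPM with PBS (log2 fold change -0.47 ± 0.086, edgeR adjusted p = 0.00313). Zfp330, a nucleolar protein, was at 58.4, 63.4 and 60.9 CPM with Akkermansia and 83.1, 84.0 and 78.0 CPM with PBS (log2 fold change -0.42 ± 0.073, edgeR adjusted p = 0.00229). In these 3 genes each Akkermansia library was below each PBS library, and the calls held when any 1 library was left out. Zfp207, which carries the Bub3 checkpoint protein to kinetochores, was 161, 155 and 157 CPM with Akkermansia and 184, 189.9 and 178 CPM with PBS (log2 fold change -0.22 ± 0.064, edgeR adjusted p = 0.0318). That call was lost without any of the 3 Akkermansia libraries or PBS library 1 (edgeR adjusted p up to 0.147). Zfp706, which encodes a small protein with 1 finger pattern, was the 1 gene of the list called higher (102, 105 and 100.4 CPM with Akkermansia and 84.9, 90.7 and 89.1 CPM with PBS; log2 fold change 0.21 ± 0.067, edgeR adjusted p = 0.0469). Its call was lost without any 1 library other than PBS library 2 (adjusted p up to 0.182), and in DESeq2, in limma-voom, without a filter on low counts, on both FPKM scales and with the replicate number as a block (edgeR adjusted p = 0.0584). The 5 uncalled genes were the ribosome sensor Zfp598, the RNA-binding genes Zfp106, Zfp346 and Zfp638, and the splicing-associated Zfp830, with log2 fold changes of 0.14, 0.051, 0.0021, -0.093 and -0.13.

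Of 24 members listed as chromatin or DNA repair coregulators, 4 were called higher and 2 lower. Among all genes with at least 600 counts 9.85% were called higher and 10.6% lower. The difference between this list and all genes was not tested. Zfp217, a partner of the CoREST and CtBP corepressors whose human counterpart is amplified in breast cancer, had the smallest p-value of all members. Its level was 177, 169 and 164 CPM with Akkermansia and 103, 106 and 104 CPM with PBS, a 1.63-fold difference with little spread in either group (log2 fold change 0.71 ± 0.066, edgeR adjusted p = 4.3e-05). Zfp646, which holds 27 finger patterns, was at 187, 183 and 182 CPM with Akkermansia and 136, 135 and 148 CPM with PBS (log2 fold change 0.40 ± 0.066, edgeR adjusted p = 0.00191). Both were higher in each Akkermansia library than in any PBS library. Zfp507 was at 58.4, 57.7 and 66.8 CPM with Akkermansia and 39.3, 47.5 and 50.4 CPM with PBS (log2 fold change 0.41 ± 0.10, edgeR adjusted p = 0.0166), and lost its call without Akkermansia library 3 or PBS library 1 (adjusted p up to 0.0917). Zfp276 was at 39.3, 43.4 and 40.1 CPM with Akkermansia and 33.5, 29.3 and 35.3 CPM with PBS (log2 fold change 0.32 ± 0.097, edgeR adjusted p = 0.0392) and lost its call without any 1 library other than PBS library 3 (adjusted p up to 0.162). Of the 4, Zfp217 and Zfp646 were thus called whichever library was left out.

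Zfp280c, whose human counterpart has been tied to DNA repair, was lower with Akkermansia (49.5, 49.0 and 52.3 CPM) than with PBS (70.2, 77.9 and 62.1 CPM), with no overlap (log2 fold change -0.48 ± 0.09, edgeR adjusted p = 0.00382). Zfp644, a partner of the histone H3 lysine 9 methyltransferases G9a and GLP, was at 54.6, 55.7 and 63.7 CPM with Akkermansia and 77.7, 70.2 and 73.6 CPM with PBS (log2 fold change -0.35 ± 0.083, edgeR adjusted p = 0.0135). The latter call was lost without Akkermansia library 1 or 2 or PBS library 1 (adjusted p up to 0.0761). Among the 18 uncalled members of this list, Zfp451, a SUMO ligase, was nearest to the threshold at 106, 106 and 102 CPM with Akkermansia and 95.4, 87.9 and 88.2 CPM with PBS (log2 fold change 0.21 ± 0.068, edgeR adjusted p = 0.0547). Zfp410, known as a dedicated activator of Chd4, was at 42.3, 44.0 and 39.0 CPM with Akkermansia and 46.6, 43.5 and 47.8 CPM with PBS, with overlapping groups (log2 fold change -0.14 ± 0.087, edgeR adjusted p = 0.316). Zfp740, the member with the second highest FPKM, was at 191, 193 and 194 CPM with Akkermansia and 195, 173 and 191 CPM with PBS, a log2 fold change of 0.049.

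None of the 6 members known for imprint or retroelement silencing was called by edgeR, DESeq2 or limma-voom, and 1 had an unadjusted edgeR p under 0.05. Over all genes with at least 600 counts edgeR called 20.4%. Zfp445, a guardian of imprinted methylation, was the most abundant of them at 23.8 FPKM, and stood at 191, 180.3 and 188 CPM with Akkermansia and 166, 179 and 157 CPM with PBS (log2 fold change 0.16 ± 0.07, edgeR adjusted p = 0.156). Zfp568, a repressor of a placental Igf2 transcript, was at 26.9, 25.5 and 21.6 CPM with Akkermansia and 29.4, 23.2 and 31.6 CPM with PBS, with overlap (log2 fold change -0.19 ± 0.13, edgeR adjusted p = 0.372). Zfp809, which binds the primer binding site of murine leukaemia proviruses, was at 27.3, 26.8 and 23.7 CPM with Akkermansia and 24.9, 23.6 and 25.9 CPM with PBS and also overlapped. The log2 fold changes of Zfp809, Zfp932, Zfp961 and Zfp661 were 0.062, 0.027, 0.13 and -0.34. Zfp57, Zfp708, Zfp42, Zfp819, Zfp600 and Zfp989 were on the same list and did not reach the summed count.

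The other called members stood on no role list. Of those called lower, Zfp367 fell furthest, from 27.8, 26.1 and 22.4 CPM with PBS to 12.3, 13.4 and 15.6 CPM with Akkermansia (log2 fold change -0.89 ± 0.13, edgeR adjusted p = 0.000897). Zfp655 was at 47.1, 43.3 and 51.7 CPM with Akkermansia and 75.4, 70.6 and 64.3 CPM with PBS (log2 fold change -0.57 ± 0.091, edgeR adjusted p = 0.0015), and Zfp868 at 29.1, 28.9 and 29.7 CPM with Akkermansia and 44.0, 36.9 and 43.3 CPM with PBS (log2 fold change -0.50 ± 0.096, edgeR adjusted p = 0.00424). In all 3 genes the groups were apart. The remaining falls in this group were Zfp773 (-0.66), Zfp212 (-0.56), Zfp1 (-0.59), Zfp101 (-0.61) and Zfp703 (-0.56), with edgeR adjusted p-values of 0.0054, 0.00868, 0.0206, 0.0317 and 0.044. Zfp703, a NET-family corepressor with no C2H2 array, was low in PBS library 2 (54.2, 35.3 and 55.9 CPM with PBS, 34.0, 30.5 and 34.0 CPM with Akkermansia). The calls of Zfp1, Zfp101 and Zfp703 were lost without any of the 3 Akkermansia libraries or PBS library 1, and those of Zfp101 and Zfp703 also without PBS library 3 (adjusted p up to 0.0941, 0.121 and 0.149).

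The other members called higher were likewise outside the role lists. Zfp143 encodes the counterpart of human ZNF143, an activator that binds the promoters of many housekeeping and small nuclear RNA genes. It was at 50.7, 48.6 and 51.0 CPM with Akkermansia and 38.8, 39.5 and 39.1 CPM with PBS, with PBS libraries that differed by less than 1 CPM (log2 fold change 0.36 ± 0.08, edgeR adjusted p = 0.0101), and its call was lost without Akkermansia library 3 (adjusted p = 0.0509). Zfp319 was at 50.4, 50.7 and 49.6 CPM with Akkermansia and 35.8, 33.6 and 38.7 CPM with PBS (log2 fold change 0.48 ± 0.086, edgeR adjusted p = 0.00287). Zfp933, a KRAB-type gene, was at 16.2, 14.5 and 14.4 CPM with Akkermansia and 9.12, 10.7 and 8.28 CPM with PBS (log2 fold change 0.69 ± 0.15, edgeR adjusted p = 0.00807). Among the other genes, Zfp950, Zfp329, Zfp553, Zfp408 and Zfp952 rose by 0.42, 0.53, 0.55, 0.43 and 0.56 on the log2 scale, with edgeR adjusted p-values from 0.00509 to 0.0102. Like Zfp319 and Zfp933, these 5 were called whichever library was left out. Zfp397 (0.45), Zfp790 (0.57) and Zfp467 (0.51) rose too, with adjusted p-values of 0.0111, 0.0114 and 0.0163. Zfp397 lost its call without Akkermansia library 1 or 3, Zfp790 without 2 or 3, and Zfp467 without 1 or 2 or PBS library 1 (adjusted p up to 0.0522, 0.0593 and 0.0709). The last 5 higher genes, Zfp865, Zfp7, Zfp84, Zfp623 and Zfp579, are named after their values were seen, had adjusted p-values from 0.0334 to 0.0494, and each lost its call without 5 of the 6 libraries left out in turn (adjusted p up to 0.128, 0.156, 0.185, 0.185 and 0.177).

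**Figure D3:**
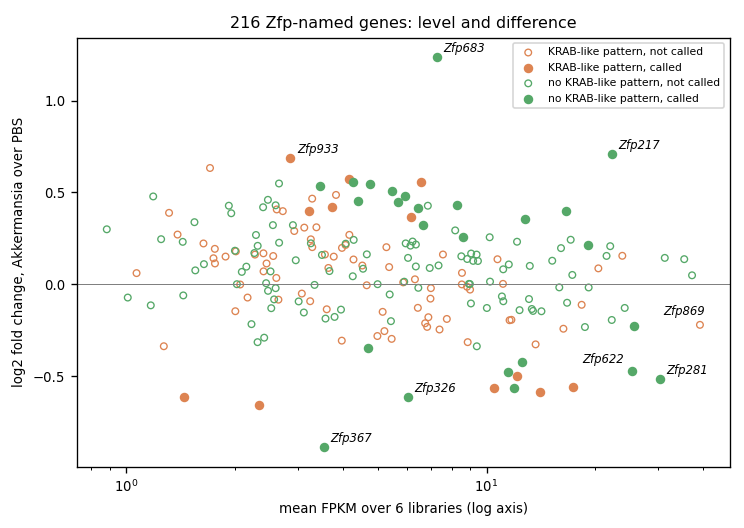
Log2 fold change (Akkermansia over PBS, vertical axis) against mean FPKM over 6 libraries (log axis) for the 216 members; filled circles are called, and colours mark whether a KRAB-like pattern was found (2 members without a matched coding sequence are drawn as not found). Of the 72 members with the highest FPKM 6 were called higher and 10 lower. Of the middle 72 members it was 14 and 3, and of the lowest 72 members 2 and 2. The same split was not made over all genes.

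Calls of members were also counted by level. Among the 72 members with the highest FPKM 6 were called higher and 10 lower and the median log2 fold change was -0.0071. In the middle 72 it was 14 higher, 3 lower and a median of 0.10. In the lowest 72 it was 2 higher, 2 lower and a median of 0.15, with 51 of 72 above 0. No test was made of this pattern, and the same split was not made over all genes. Of all genes with at least 600 counts 9.85% were called higher and 10.6% lower. The 100 Zfp-named genes that were tested but did not reach the summed count had 6 calls higher and 3 lower (9.0%) and a median of 0.25. Genes with at least 600 counts are not a like background for these. Over all genes tested, of any summed count, 7.32% were called higher and 8.28% lower. The share over all genes below 600 counts is not given here.

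The structure of the encoded proteins was read from coding sequences of GENCODE release M21, which were found for 214 members. A C2H2 pattern (C-x(2,4)-C-x(12)-H-x(3,5)-H in the translated sequence) occurred at least once in 210 of them, with a median of 10 patterns a protein and a maximum of 36. It was not found in Zfp330, Zfp365, Zfp703 and Zfp839. A KRAB-like pattern was found in 87 members, which had a median of 11 finger patterns, beside 8 in the 127 without it. The pattern is narrow, and missed Zfp568, a known KRAB protein. Of the 87 KRAB-like members 6 were called higher and 6 lower (13.8%, median log2 fold change 0.06). Of the 127 others 16 were called higher and 9 lower (19.7%, median 0.10). The share of all genes with at least 600 counts was 20.4%. The KRAB-like members were also less abundant, with a median of 4.06 FPKM against 6.05 FPKM.

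The calls were also counted by number of finger patterns. With more than 10 patterns, 12 of 100 members were called higher and 1, Zfp101, lower (13.0%). Over all genes with at least 600 counts 20.4% were called, 9.85% higher and 10.6% lower. The median log2 fold change of these 100 members was 0.15, and 67 of 100 were above 0. With 6 to 10 patterns 7 of 64 were higher and 6 lower (20.3%, median 0.07). With 1 to 5 patterns 3 of 46 were higher and 6 lower (19.6%, median 0.01). Of the 4 members without the pattern Zfp330 and Zfp703 were called lower. The groups also differed in level, with a median of 3.78 FPKM for more than 10 patterns, 6.10 FPKM for 6 to 10 and 8.96 FPKM for 1 to 5. The difference between the groups of finger number was not tested.

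**Figure D4:**
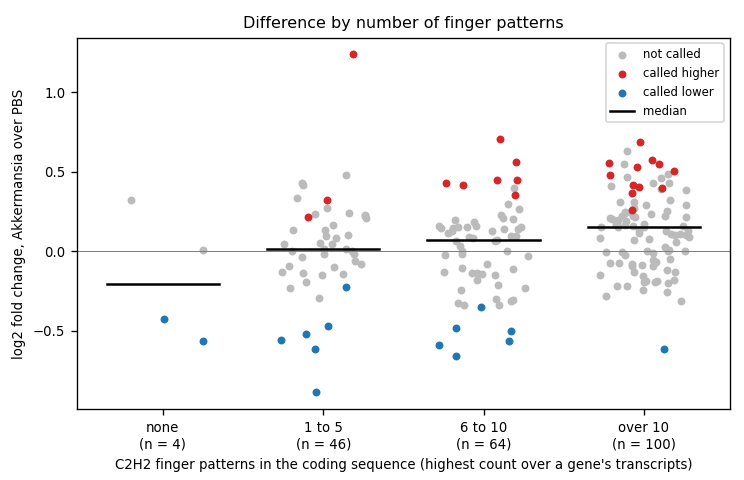
Log2 fold change (Akkermansia over PBS, vertical axis) of the 214 members with a coding sequence, by number of C2H2 finger patterns (none, 1 to 5, 6 to 10, over 10); each point is a gene, red called higher, blue called lower, grey not called, and the black line is the median. The group with over 10 patterns holds 12 red points and 1 blue point (13.0% called, beside 20.4% of all genes with at least 600 counts).

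Neighbouring families gave a frame for these counts. Zbtb proteins join a BTB domain to C2H2 fingers. Of 31 Zbtb-named genes with at least 600 counts and a finger pattern, 9 were called higher and 3 lower (38.7%, median log2 fold change 0.20). Zbtb8os, an opposite-strand gene with no finger pattern, was left out of these and was not called. Of 8 Zkscan genes 1 was called higher (12.5%), and of 9 Zscan genes 1 higher and 1 lower (22.2%). Over all genes with at least 600 counts 20.4% were called. Of 15 genes with a KRAB-like pattern but another name, none was called by edgeR, DESeq2 or limma-voom, and 1 had an unadjusted edgeR p under 0.05. The difference between these families and the Zfp members was not tested.

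Genes of the KRAB silencing pathway were examined beside the members. Of 36 tested genes 5 were called (13.9%, against 15.6% of all genes tested). All 36 had a summed count above 600, and of all genes with at least 600 counts 20.4% were called. Trim28, the corepressor that KRAB boxes bind, was at 263, 302 and 293 CPM with Akkermansia and 292, 271 and 309 CPM with PBS (log2 fold change -0.024 ± 0.077, edgeR adjusted p = 0.874). Setdb1, the histone methyltransferase recruited by Trim28, was at 87.3, 93.8 and 96.5 CPM with Akkermansia and 81.5, 87.4 and 88.5 CPM with PBS (log2 fold change 0.11 ± 0.072, edgeR adjusted p = 0.342). Both had overlapping groups. Of the 13 genes of the list that encode NuRD remodelling complex subunits, 3 were called higher and 10 were not called. They were counted as a group after their values were seen. Of all genes with at least 600 counts 9.85% were called higher. The median log2 fold change of the 13 was 0.047, with Rbbp4, Rbbp7 and Mbd2 below 0 (-0.097, -0.16 and -0.085). Chd3 was higher with Akkermansia at 1756, 1814 and 1827 CPM against 842, 1034 and 1249 CPM (log2 fold change 0.79 ± 0.12, edgeR adjusted p = 0.00244), Chd4 had a log2 fold change of 0.30 (edgeR adjusted p = 0.00929) and Mbd3 one of 0.29 (edgeR adjusted p = 0.0222). Chd3 varied widely among the PBS libraries. Smarcad1, a remodeller that binds Trim28, and Resf1, a partner of Setdb1, were lower, with log2 fold changes of -0.38 and -0.27 (edgeR adjusted p = 0.0199 and 0.0349). With 1 library left out between 1 and 7 of the pathway genes were called, and Chd3 was the 1 gene called every time. Without Akkermansia library 1, 2 or 3 or PBS library 1 the count was 2, 2, 1 and 3. Chd4 lost its call without Akkermansia library 2 or 3 and Mbd3 without any library of that group (adjusted p up to 0.0595 and 0.0967). Smarcad1 lost it without any Akkermansia library or PBS library 1, and Resf1 without Akkermansia library 1 or 3 or PBS library 1 or 2 (adjusted p up to 0.0847 and 0.16).

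Many Zfp genes lie side by side in the mouse genome, as products of tandem duplication. In the RefSeq gene order of GRCm38.p6, 213 members were found, and 86 of them lay in runs of 3 or more neighbouring Zfp-named genes. Of those 86, 7 were called higher and 4 lower (12.8%, median log2 fold change 0.05), and of the 127 in shorter runs 14 and 11 (19.7%, median 0.11). The share of all genes with at least 600 counts was 20.4%. The longest run among those with at least 3 members, 20 genes on chromosome 13, held 11 members, among them Zfp595, Zfp953, Zfp429, Zfp65 and Zfp738. None of the 11 was called by edgeR or limma-voom and 1 by DESeq2, and 3 had an unadjusted edgeR p under 0.05. A run of 15 genes on chromosome 7 held 8 members, of which Zfp84 and Zfp790 were called higher. Over whole chromosomes with at least 13 members, 9 of 47 members on chromosome 7 were called higher and 1 lower, beside 12.1% higher and 4.86% lower of all 925 tested protein-coding genes placed there. On chromosome 17 it was 1 higher and 1 lower of 29 (10.7% and 6.16% of all genes there), on chromosome 13 0 and 1 of 17 (4.46% and 8.45%), on chromosome 8 2 and 4 of 16 (10.6% and 8.26%), on chromosome 5 0 and 3 of 14 (9.04% and 9.57%) and on chromosome 9 0 and 0 of 13 (8.70% and 7.18%). Reads of near-identical neighbours, such as Zfp874a and Zfp874b or Zfp729a and Zfp729b, could have been divided between copies in ways that counts do not show.

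Promoter windows of 300 bases, from 250 before to 50 after an annotated start, were available from RefSeq (GRCm38.p6) for 180 members, 28 of them called. Motifs were searched on both strands, and no match overlapped a match of another motif in the members' windows. The ZNF143 motif, searched as ACTACA, any 2 bases and TCCC, occurred in 28 of the 180 members (15.6%), beside 2.08% of all 27025 genes with a window and 4.79% of the 10086 tested ones. Of the 29 matches in members 79.3% began within 100 bases before the start, with a median distance of 51 bases, against 56.8% of 614 matches in genes of other names, with a median of 80 bases. In the Zfp-named genes that are no members the values were close to those of the members, at 74.3% of 35 matches and a median of 58 bases. The members with the motif included Zfp84 and Zfp790 from the chromosome 7 run and Zfp595, Zfp953, Zfp429, Zfp874a, Zfp874b, Zfp748, Zfp729a, Zfp738 and Zfp65 from the chromosome 13 run. Duplicated neighbours can share their promoter sequence, so these may not be separate occurrences.

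Of the 28 members with a ZNF143 match 3 were called higher and 1 lower, and their median log2 fold change was 0.14, beside 0.06 for the 152 members without a match. Among all 483 tested genes with a match 47 were called higher and 20 lower, and among the 9604 with a window and no match 750 were higher and 888 lower. Stretches of 60 bases around the match in the 4 called genes are shown because they display the shared element in genes of both directions. Each is written 5′ to 3′ along the gene's strand in lower case and ends before the annotated start, and the capitals mark the motif or its reverse complement.
Zfp790: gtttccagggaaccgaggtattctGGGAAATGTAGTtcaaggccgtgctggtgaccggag
Zfp84: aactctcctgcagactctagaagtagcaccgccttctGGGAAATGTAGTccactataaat
Zfp933: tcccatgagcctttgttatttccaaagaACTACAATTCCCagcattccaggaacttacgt
Zfp1: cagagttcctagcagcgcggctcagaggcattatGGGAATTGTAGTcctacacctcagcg
They lie, in GRCm38.p6, at chr7:29815944-29816003 (plus strand), chr7:29768492-29768551 (plus strand), chr4:147848419-147848478 (minus strand) and chr8:111643383-111643442 (plus strand). The matches began 104, 23, 32 and 26 bases before the start. Zfp790 and Zfp84 carried the same 12 bases. Zfp790 was at 16.3, 19.0 and 19.5 CPM with Akkermansia and 13.2, 11.9 and 11.8 CPM with PBS. Zfp84 was at 27.8, 26.5 and 31.5 CPM with Akkermansia and 24.5, 21.1 and 20.9 CPM with PBS. Both were higher in each Akkermansia library. Zfp1 was lower, at 23.8, 20.8 and 24.6 CPM with Akkermansia and 42.3, 27.1 and 34.5 CPM with PBS. A match describes the letters of a window and is not evidence of binding.

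**Figure D5:**
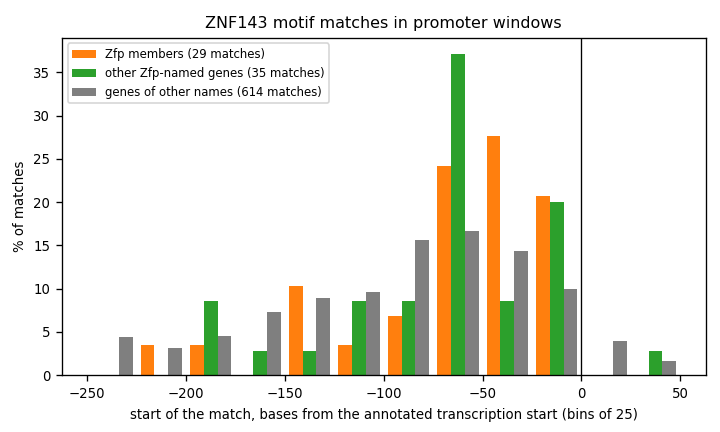
Position of ZNF143 motif matches in promoter windows, as distance in bases of the match from the annotated transcription start (horizontal axis, bins of 25 bases, start at 0), as percent of matches, for 29 matches in Zfp members (orange), 35 in other Zfp-named genes (green) and 614 in genes of other names (grey). Of the matches 79.3%, 74.3% and 56.8% lie in the 100 bases before the start.

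The cyclic AMP response element, TGACGTCA, was found in 10 of 180 members (5.56%), beside 2.03% of all genes with a window and 3.54% of tested genes. Among all 357 tested genes with this element 14 were called higher and 63 lower, and among the 9730 with a window and no match 783 were higher and 845 lower. Of the 10 members 2 were called, Zfp367 and Zfp868, both lower, which is why their stretches are printed, again with the motif in capitals.
Zfp367: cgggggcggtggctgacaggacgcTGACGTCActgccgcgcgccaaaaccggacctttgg
Zfp868: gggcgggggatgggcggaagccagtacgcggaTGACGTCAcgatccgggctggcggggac
Their positions are chr13:64152443-64152502 (minus strand) and chr8:69625176-69625235 (minus strand) in GRCm38.p6, with matches 105 and 28 bases before one annotated start. Each of these genes has a second annotated start, whose window held no match of the motifs searched. The other 8 members with the element were not called, and the median log2 fold change of the 10 was 0.034. The NRF1 motif, GCGCA, any base and GCGC, was in 20 members (11.1%), close to the 11.3% of tested genes, with Zfp217 and Zfp329 called higher and Zfp281 and Zfp644 lower among them. The NF-kB motif, GGGA, any base, TT, any base and CC, was in 5 members (2.78%, against 1.62% of tested genes), of which Zfp84 was called. The palindromic glucocorticoid response element, AGAACA and TGTTCT with any 3 bases between, was in none of the 180 windows and in 3 of 27025 genes. Member windows were also richer in CpG, with a median of 17 CpG and 56.0% GC, against 7 and 52.7% over all windows, and the part of base composition in these shares was not tested.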

How the data were processed

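Poly(A)-selected RNA of 6 libraries was measured, 3 per group. The authors deposited whole-number counts per gene, and FPKM values rounded to 2 decimals, with 1 column per library. Per the submitters' processing notes, reads were placed on GRCm39; aligner, counting program, annotation and strand handling are not named there. Library totals were 15032257 to 16677923 counts, so that 3 counts correspond to 0.181 to 0.2 CPM.

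The counts were tested as deposited with edgeR 4.0.16 in R 4.3.3 (filterByExpr with minimum count 10 and minimum total 15, TMM scaling, robust quasi-likelihood F test, two-sided). Benjamini-Hochberg adjustment covered all 15138 genes tested, with a threshold of 0.05 and no covariate. Groups were taken from the library titles. CPM are counts scaled with the TMM factors. Levels between genes were compared on the authors' FPKM. The procedure was tested on simulated data. P-values measure the spread between these libraries; whether each came from a separate animal is not stated.

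The members, role lists, pathway list and marker lists were chosen with earlier results of these data known, so no list was tested as a whole. Genes were named by rule: the 15 smallest p-values in each direction, members on role lists, the 5 highest FPKM, the 3 genes on either side of the summed count of 600, and called pathway genes. Of the uncalled chromatin or DNA repair coregulators only some are printed. Genes given values outside these rules include Zfp335os, Trim28 and Setdb1. Tasor was listed as Fam208a. Alternatives were DESeq2 1.42.0, limma-voom (limma 3.58.1), RLE factors, library totals, other filters, log2(FPKM + 1) and log2(FPKM + 0.1), glmTreat against a fold of 1.5, a replicate block, other summed-count minimums, and each library left out in turn. Protein patterns were to come from RefSeq proteins and were instead read from translated GENCODE M21 coding sequences (GRCm38); promoter windows and gene order are from RefSeq GRCm38.p6. These builds differ from that of the counts, and genes were matched by identifier or symbol. Figures used matplotlib 3.10.9.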

Additional observations from a re-analysis of the deposited data

How the results depend on the processing

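With DESeq2, limma-voom, RLE factors, library totals and a filter of 1 CPM in 3 libraries, 21 to 24 members were higher and 14 or 15 lower, and 5 pathway genes were called. Without a filter on low counts 30 members were higher and 15 lower, 35 of them shared with the 37. On log2(FPKM + 1) and on log2(FPKM + 0.1) the members called higher numbered 13 and the pathway genes 3. Against a fold of 1.5, glmTreat called 0 members higher, 0 lower and 0 pathway genes, with 3 members and 1 pathway gene at an unadjusted p under 0.05. The edgeR test against any fold called 37 and 5. Over all 15138 genes tested glmTreat called 37 higher and 50 lower. The median log2 fold change of the members, 0.09, was 0.11 (0.107) without a filter on low counts, 0.11 (0.108) on log2(FPKM + 0.1), 0.062 for the 163 members with a summed count of at least 1200 and 0.12 for all 316 Zfp-named genes tested. With 1 library left out, 11 to 24 members were higher and 10 to 16 lower, the median was 0.069 to 0.10, and 1 to 7 pathway genes were called; the cause was not tested, and fewer libraries were compared. Libraries of the 2 groups share numbers in their titles. Correlations of same-numbered libraries were 0.085, 0.077 and 0.030, and those of the other pairs -0.072 to 0.0021. Each library thus correlated best with its own number, though weakly. With 3 libraries a group these values cannot decide whether the numbers mark pairs. The main test used no pairing. With the replicate block 22 members were higher and 16 lower, 36 of the 38 shared with the 37 and Zfp706 lost, the median was 0.10 (0.0992) and 5 pathway genes were called. Between Akkermansia replicates the variance was 4.53 to 6.24 times that of counting alone, and between PBS replicates 14.7 to 19.9 times. Each library was counted once. None of the called members and pathway genes changed direction under any of these settings. The reversals lay in uncalled genes near 0, over the libraries left out: Zfp787 (-9.7e-05 to 0.25), Zfp106 (-0.012 to 0.089), Zfp740 (-0.0011 to 0.074), Zfp932 (-0.054 to 0.094), Zfp831 (-0.084 to 0.063), Zfp609 (-0.10 to 0.060), Zfp346 (-0.033 to 0.040) and Zfp518a (-0.045 to 0.073); with the filter of 1 CPM in 3 libraries Zfp346 was -0.00080 and Zfp518a -0.0019. Members near the summed count of 600 had few counts in each library, which limits what can be called among them.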
